A study of Mus musculus with 2 samples.

Results

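Of the 26124 genes in the matrices, 9 transcription factors of the macrophage and monocyte lineages are described here: *Spic*, *Bach1*, *Nfe2l2*, *Maf*, *Spi1*, *Irf8*, *Irf4*, *Cebpb* and *Klf4*. They were taken by symbol, all 9 were found, and none was used to cluster or to name cells. The cells came from the spleen of 2 mice aged 12 to 16 weeks and were enriched with beads coated with an antibody against F4/80, a macrophage surface protein. The mouse labelled SCD, a Berkeley model of sickle cell disease, was homozygous for Hbatm1Paz and Hbbtm1Tow, which remove the mouse globin genes, and for Tg(HBA-HBBs)41Paz, which carries human globin genes with the sickle mutation. The control mouse, called wild-type, was homozygous for Hbatm1Paz, heterozygous for Hbbtm1Tow and hemizygous for the same transgene. Each condition is 1 library of 1 mouse, so no test between conditions is possible, and every interval is a 95% exact interval that covers counting error only.

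SPI-C, encoded by *Spic*, is the factor that red pulp macrophages of the spleen need, and heme raises it by binding BACH1, a repressor, which is then degraded. NRF2, encoded by *Nfe2l2*, binds many of the same antioxidant response elements as BACH1 and activates genes against oxidants and for heme and iron handling, including *Hmox1*. PU.1, encoded by *Spi1*, and MAF act broadly in macrophages, C/EBPβ and KLF4 in monocytes, and IRF8 and IRF4 in dendritic cells (DCs), monocytes and B lymphocytes.

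The wild-type-labelled library held 145953464 UMIs, the counted molecules, in 24144 barcodes, and the SCD-labelled library 73986356 UMIs in 15442 barcodes. Of these, 19418 and 12279 cells passed the filters. Their median depth was 4116 and 4571 UMIs, and 65 of the kept barcodes occur in both libraries. The β-globin genes, whose deletion differs between the mice, went against the labels. *Hbb-bs* was at 160 CPM (UMIs per 1000000 UMIs of the group) and 63645 CPM in erythroid-like cells of the libraries labelled wild-type and SCD, where the SCD genotype should lack it. *Hba-a1*, a mouse α-globin gene that both genotypes should lack, had 31112 and 34273 CPM there. The stated genotypes thus failed this check in both libraries, so each library is named by its label throughout and no direction is tied to a genotype. Pairs of values are given in that order. Clusters with red pulp macrophage markers are called RPM-like (4715 and 1626 cells in the libraries labelled wild-type and SCD), and clusters that also held erythroid markers EBI-like, for erythroblastic island (4538 and 752 cells). Other classes were erythroid-like (3179 and 334), Ly6c-high monocyte-like (1635 and 1771), Ly6c-low monocyte-like (447 and 1049), cDC2-like (459 and 823) and mature DC-like cells (451 and 632), and 2521 and 2807 cells stayed unnamed. The main B lymphocyte-like cluster (513 and 1732 cells) served as the reference for free RNA, which enters every droplet, and is called the B-cell reference. The 10 red pulp macrophage markers summed to 22962 and 20284 CPM in RPM-like cells and to 2682 and 1730 CPM in the B-cell reference. In these sums over cells, fewer molecules per cell and fewer cells that hold them cannot be told apart.

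The promoters of 3 of the factors are shown in GRCm38.p6 from RefSeq, from 250 bases before to 50 bases after the annotated start. *Spic* was chosen because its highest level was in macrophages, and *Nfe2l2* and *Cebpb* as a pair with like levels over the cell classes that both hold the core of the antioxidant response element. Capitals mark that core, TGACNNNGC.
*Spic*, chr10:88682974-88683273, minus strand: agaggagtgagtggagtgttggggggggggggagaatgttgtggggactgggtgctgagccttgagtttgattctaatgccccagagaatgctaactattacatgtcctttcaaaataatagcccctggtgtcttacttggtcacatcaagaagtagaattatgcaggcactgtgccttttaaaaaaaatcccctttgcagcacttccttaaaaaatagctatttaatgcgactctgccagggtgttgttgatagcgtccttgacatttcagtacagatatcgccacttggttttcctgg
*Nfe2l2*, chr2:75704614-75704913, minus strand: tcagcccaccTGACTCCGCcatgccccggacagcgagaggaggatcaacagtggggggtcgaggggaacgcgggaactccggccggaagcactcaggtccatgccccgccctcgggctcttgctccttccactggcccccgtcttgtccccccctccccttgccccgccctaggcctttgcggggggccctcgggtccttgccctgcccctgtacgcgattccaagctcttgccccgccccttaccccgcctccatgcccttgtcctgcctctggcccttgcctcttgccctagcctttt
*Cebpb*, chr2:167688665-167688964, plus strand: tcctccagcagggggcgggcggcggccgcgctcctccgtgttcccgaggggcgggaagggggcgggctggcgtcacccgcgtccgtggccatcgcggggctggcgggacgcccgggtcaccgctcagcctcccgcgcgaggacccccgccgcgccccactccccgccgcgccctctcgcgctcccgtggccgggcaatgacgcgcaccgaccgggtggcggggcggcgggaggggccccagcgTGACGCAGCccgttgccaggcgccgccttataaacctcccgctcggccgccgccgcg
The core began 240 bases before the start of *Nfe2l2*, as TGACTCCGC, and 7 bases before that of *Cebpb*, as TGACGCAGC, so that it ran across the start of *Cebpb*. Another began 25 bases before a second start of *Irf8*, again as TGACTCCGC. Of the members, 7 matched an entry, with 8 windows in all, and 3 of these 8 held the core on either strand, against 12.4% of 32851 windows of the same length. The *Spic* window held none of the 4 motifs searched. The other 3 were GAGGAAGT for PU.1 (in 3.20% of all windows), GGAA and GAAA set 2 bases apart, a composite of ETS and IRF sites (2.72%), and TTGCNNAA for C/EBP (10.8%), and no window of a member held them. A match of letters is a description and not a binding site.

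*Spic* (ENSMUSG00000004359, chromosome 10 from 88674772 to 88685015 in GRCm38, minus strand) was highest in RPM-like cells of both libraries, at 1027 CPM (1012 to 1043) in the wild-type-labelled library and 1679 CPM (1650 to 1709) in the SCD-labelled library. EBI-like cells followed with 784 and 1268 CPM, and Ly6c-low monocyte-like cells with 641 and 509 CPM. The intervals of these 3 classes did not overlap within either library. The order below them was not clear, since most neighbours overlapped. The lowest level was that of the B-cell reference, with 113 CPM (96.1 to 133) and 163 CPM (153 to 174).

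*Maf* (ENSMUSG00000055435, chromosome 8 from 115682942 to 115707794, minus strand) had the same order at the top. It was at 2059 CPM (2037 to 2080) and 2224 CPM (2190 to 2258) in RPM-like cells, at 1579 and 1511 CPM in EBI-like cells and at 968 and 606 CPM in Ly6c-low monocyte-like cells. In the B-cell reference it was at 227 and 148 CPM. The top 3 classes of *Spic* and *Maf* were thus the same in both libraries. Because reads come from the 3′ end of a transcript, levels of different factors are not compared with each other.

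**Figure D1:**
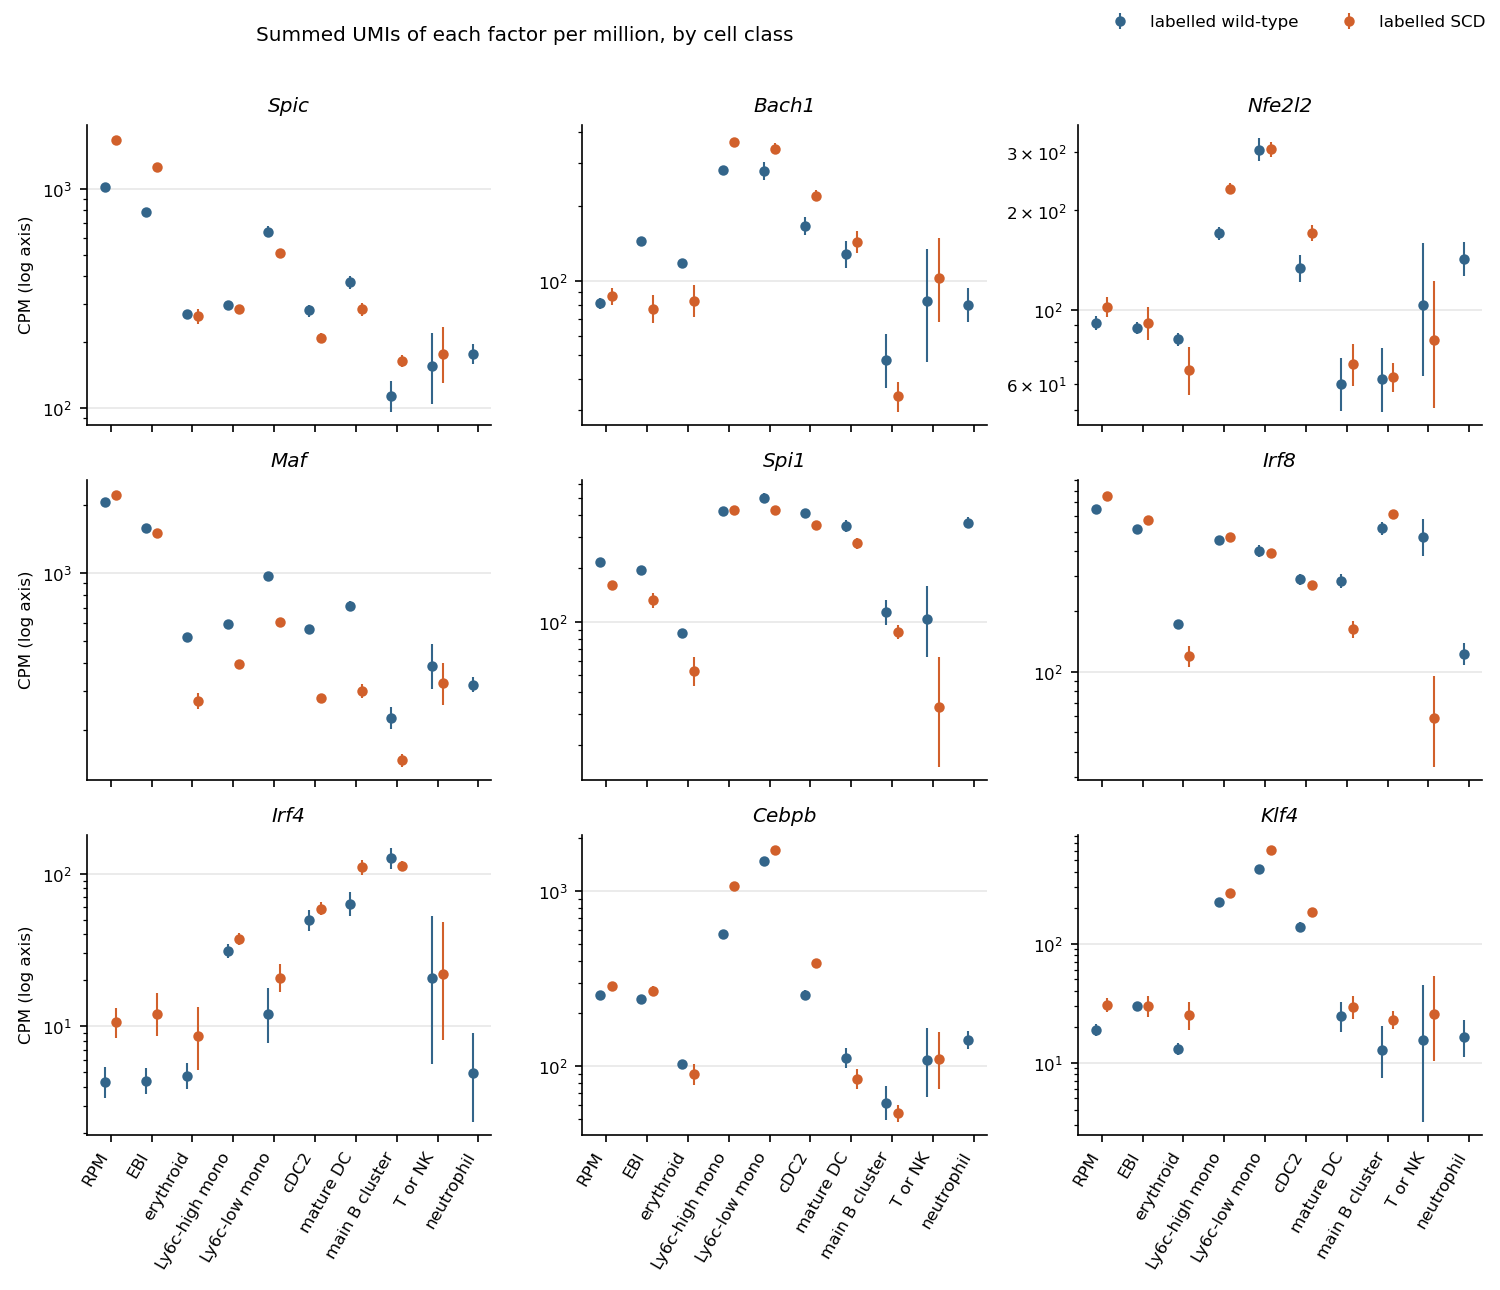
Level of each factor as CPM of summed UMIs on a log axis, by cell class, in the wild-type-labelled library (blue) and the SCD-labelled library (orange). Points are the summed values and bars the 95% exact Poisson intervals, for classes of at least 50 cells. *Spic*, *Maf* and *Irf8* are highest on the left, in RPM-like cells, and *Cebpb* and *Klf4* in Ly6c-low monocyte-like cells.

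Counted per cell, a UMI of *Spic* was found in 59.6% (58.1 to 61.2%) of 4033 and 79.1% (76.9 to 81.1%) of 1477 RPM-like cells that could be thinned to 1000 UMIs. The share was 9.86% and 13.1% in the B-cell reference. Without thinning it was 79.2% and 94.3% against 20.7% and 33.2%. Median depths before thinning were 2138 and 4093 UMIs in all RPM-like cells and 2159 and 2898 UMIs in the B-cell reference. *Maf* was found in 80.4% and 84.4% of RPM-like cells and in 19.5% and 12.2% of the B-cell reference. *Spic* and *Maf* were therefore well above the share in the reference, and 12 of the 18 shares, 1 per factor and library, were above it beyond their intervals. This count takes in *Irf8* and *Irf4*, which the reference held at 519 and 610 CPM and at 126 and 113 CPM. For these at least, the reference is not a level of free RNA.

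Outside the macrophage classes, *Spic* and *Maf* lay in the range of the macrophage markers. Each level was set as a percent of that in RPM-like cells of the same library, beside the 10 markers of red pulp macrophages. In the B-cell reference *Spic* was at 11.0% and 9.73%, and the markers ran from 6.11 to 13.9% and from 4.62 to 10.8%. *Maf* lay inside the range of the markers in 17 of 17 points, and *Spic* in 16 of 17. A point is a class other than EBI-like, or the B-cell reference, in 1 library. Since the reference is part of the B lymphocyte-like class, its cells are counted in both. The exception was *Spic* in Ly6c-low monocyte-like cells of the wild-type-labelled library, at 62.4% against markers at 32.4 to 60.7%. Levels inside that range are not read as expression of these factors. *Bach1*, *Nfe2l2*, *Irf4* and *Klf4* were above the markers' range at all 17 points, *Spi1* at 16, *Cebpb* at 15 and *Irf8* at 11. A factor that is low in RPM-like cells can pass this range at background level, so these counts are not read as expression either. *Irf4*, for one, was at 4.74 CPM in erythroid-like and 4.32 CPM in RPM-like cells of the wild-type-labelled library.

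**Figure D2:**
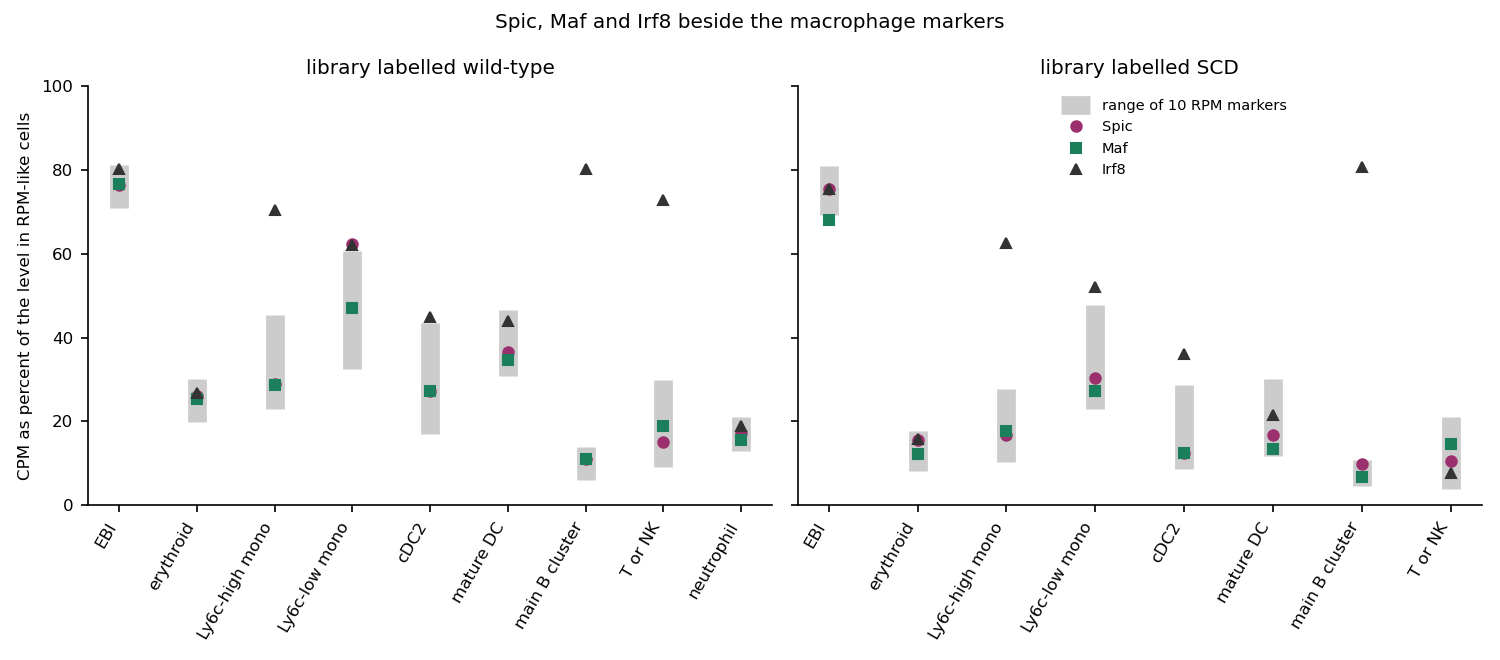
CPM of *Spic* (circles), *Maf* (squares) and *Irf8* (triangles) in each class as a percent of the level in RPM-like cells of the same library, beside the range of the 10 red pulp macrophage markers (grey bars). *Spic* and *Maf* lie in or next to the grey bars, and *Irf8* stands at about 80% in the B-cell reference of both libraries, 80.3% and 80.7%.

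*Irf8* (ENSMUSG00000041515, chromosome 8 from 120736358 to 120756694, plus strand) was high in macrophages and in B lymphocytes alike. It was at 646 CPM (634 to 658) and 756 CPM (736 to 776) in RPM-like cells, and at 519 CPM (481 to 559) and 610 CPM (590 to 630) in the B-cell reference. A UMI was found in 41.5% and 50.8% of RPM-like cells and in 40.4% and 44.7% of the B-cell reference. In the wild-type-labelled library the intervals of these shares overlapped. Monocytes had 455 and 472 CPM in Ly6c-high and 400 and 393 CPM in Ly6c-low monocyte-like cells.

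No cluster was named for cDC1, another type of DC in the marker lists. In the DC classes that were named, *Irf8* was lower. It was at 289 and 272 CPM in cDC2-like cells and at 284 and 163 CPM in mature DC-like cells, and the unnamed cluster led by *Ffar2* and *Kit*, in which 4 of the cDC2 markers passed the limits, was at 172 and 149 CPM. The 68 T or NK lymphocyte-like cells of the wild-type-labelled library were at 470 CPM (378 to 577), against 58.9 CPM (33.7 to 95.7) in the 101 of the SCD-labelled library. Markers of plasmacytoid DCs, which depend on IRF8, summed to 1152 and 206 CPM in the same cells. Their part in this difference was not tested.

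*Irf4* (ENSMUSG00000021356, chromosome 13 from 30749226 to 30766976, plus strand) had another order and was very low in macrophages. It was at 4.32 CPM (3.38 to 5.43) and 10.6 CPM (8.37 to 13.2) in RPM-like cells, from 73 and 79 UMIs. In mature DC-like cells it was at 63.3 CPM (52.7 to 75.3) and 110 CPM (98.3 to 123), and in the B-cell reference at 126 and 113 CPM. The cluster led by *Ffar2* and *Kit* had 76.8 and 81.8 CPM and cDC2-like cells 49.4 and 58.8 CPM. DCs and B lymphocytes thus held the most *Irf4*, and a UMI was found in 0.521% and 0.812% of RPM-like cells against 9.66% and 9.27% of the B-cell reference.

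*Cebpb* (ENSMUSG00000056501, chromosome 2 from 167688915 to 167690418, plus strand) was highest in Ly6c-low monocyte-like cells, with 1480 CPM (1427 to 1534) and 1714 CPM (1676 to 1753). C/EBPβ is needed for the survival of these patrolling monocytes. Ly6c-high monocyte-like cells had 568 and 1065 CPM, RPM-like cells 256 and 286 CPM, and mature DC-like cells 112 and 84.6 CPM. The intervals of the first 2 classes were apart from each other and from all other classes of at least 50 cells in both libraries.

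*Klf4* (ENSMUSG00000003032, chromosome 4 from 55527143 to 55532466, minus strand), a factor of monocyte differentiation, was at 425 CPM (397 to 455) and 608 CPM (585 to 631) in Ly6c-low and at 225 and 266 CPM in Ly6c-high monocyte-like cells. In RPM-like cells it was at 18.9 CPM (16.9 to 21.1) and 30.6 CPM (26.8 to 34.9). A UMI was found in 36.3% and 46.1% of Ly6c-low monocyte-like cells and in 1.74% and 3.05% of RPM-like cells. In the wild-type-labelled library the RPM-like share overlapped that of the B-cell reference, 0.986% (0.321 to 2.29%). It also did in the SCD-labelled library, with 1.75% (1.18 to 2.49%) in the reference and an interval of 2.23 to 4.06% in RPM-like cells. Shares of *Klf4* in macrophages were thus not told apart from background at this depth.

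*Nfe2l2* (ENSMUSG00000015839, chromosome 2 from 75675513 to 75704641, minus strand) was at 305 CPM (281 to 330) and 306 CPM (290 to 323) in Ly6c-low monocyte-like cells, and at 171 and 233 CPM in Ly6c-high monocyte-like cells. RPM-like cells had 91.4 CPM (86.9 to 96.0) and 102 CPM (95.2 to 110), which overlapped the level of EBI-like cells, 88.4 and 91.3 CPM. The transcript of NRF2 was thus lower in the macrophages than in either monocyte class. The B-cell reference had 62.0 and 62.6 CPM, and RPM-like cells were at only 1.47 and 1.63 times that level.

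*Spi1* (ENSMUSG00000002111, chromosome 2 from 91082390 to 91115756, plus strand) was found in all myeloid classes. Ly6c-low monocyte-like cells had 499 and 426 CPM, Ly6c-high monocyte-like cells 423 and 430 CPM, cDC2-like cells 409 and 354 CPM and mature DC-like cells 348 and 277 CPM. RPM-like cells were below them, at 217 CPM (210 to 224) and 160 CPM (151 to 170). Erythroid-like cells, in which PU.1 is normally silenced, had 86.0 and 52.6 CPM.

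*Bach1* (ENSMUSG00000025612, chromosome 16 from 87698945 to 87733346, plus strand) was high in both monocyte classes, which overlapped each other. Ly6c-high monocyte-like cells had 281 CPM (272 to 291) and 365 CPM (354 to 376), and Ly6c-low monocyte-like cells 278 and 342 CPM. RPM-like cells were below both monocyte and both DC classes, at 81.1 CPM (76.8 to 85.5) and 86.8 CPM (80.3 to 93.8). The B-cell reference had 47.8 and 34.2 CPM.

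Within the erythroid lineage *Bach1* differed between clusters of the wild-type-labelled library. The erythroid-like cluster led by *Car1* and *Cdc6* had 83.2 CPM (77.3 to 89.4), that led by *Ube2c* and *Hemgn* 120 CPM (113 to 127) and that led by *Xpo7* and *Tmcc2* 196 CPM (182 to 210). The EBI-like cluster led by *Slfn14* and *Oas1e*, of 792 cells, had 397 CPM (367 to 428), above the 281 CPM of Ly6c-high monocyte-like cells. Its median depth over both libraries was 1582 UMIs. Its red pulp macrophage markers were at a median of 4.11 times the B-cell reference, near the limit of 4 for the name. Its erythroid markers were at 17.5 times. The other 3 EBI-like clusters with at least 50 cells in this library were at 109, 153 and 79.7 CPM. In the SCD-labelled library the cluster led by *Xpo7* and *Tmcc2* had 74.4 CPM (51.5 to 104) in 138 cells, and no cluster of at least 50 erythroid-like or EBI-like cells was above 115 CPM.

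**Figure D3:**
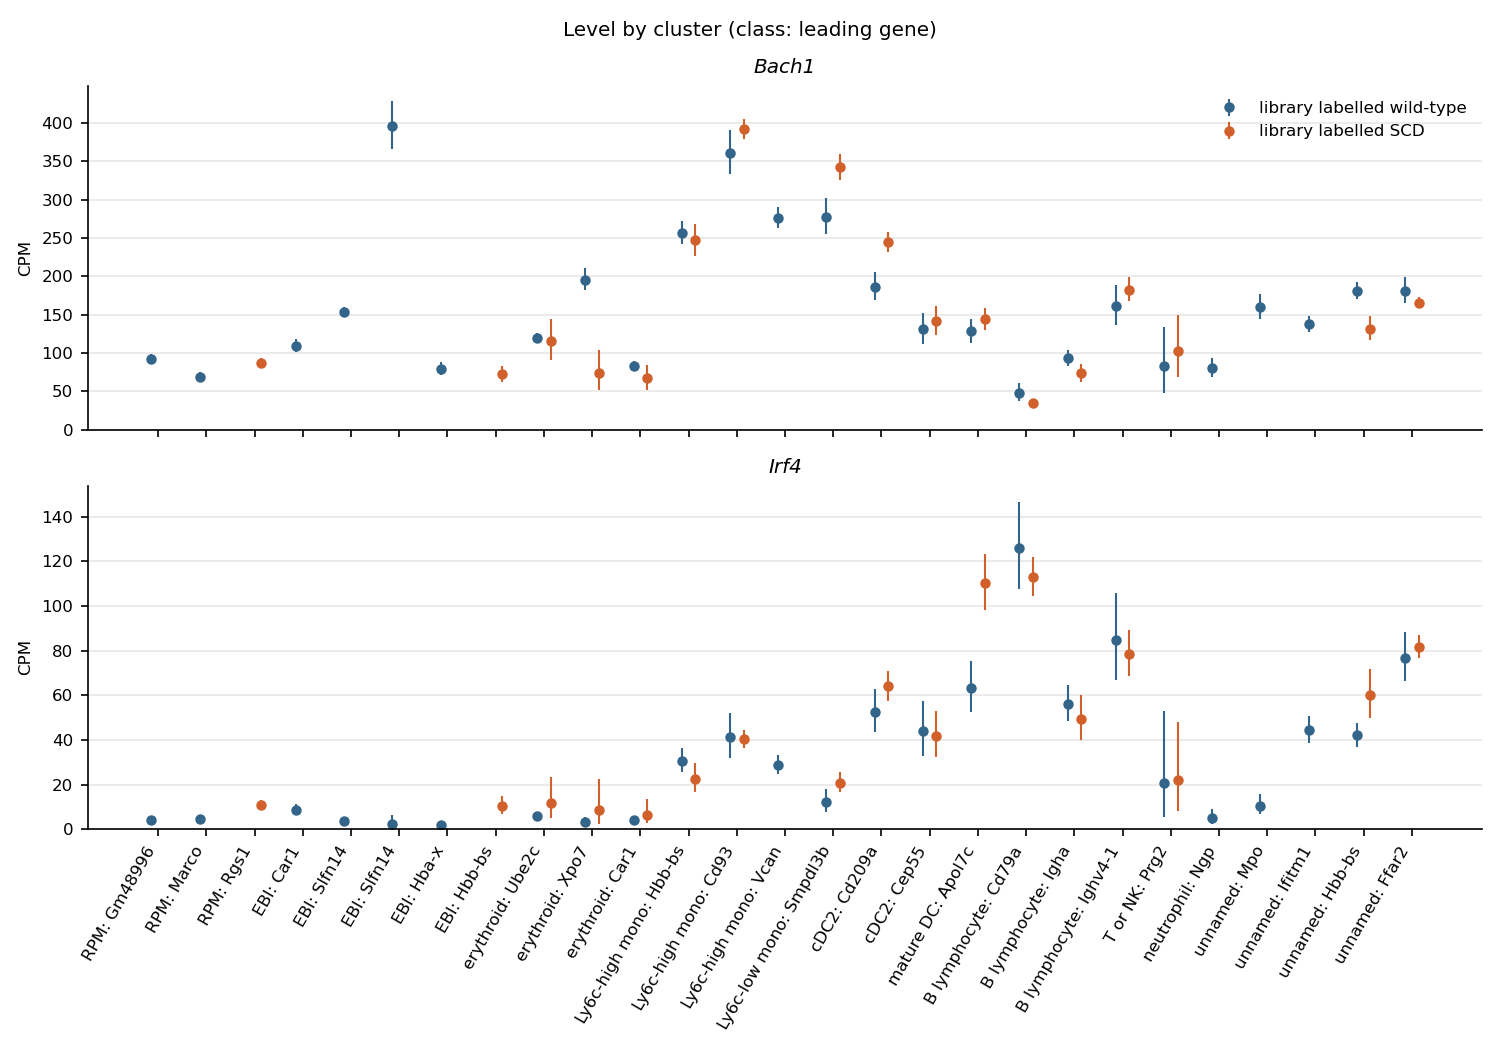
CPM of *Bach1* (top) and *Irf4* (bottom) in each cluster with at least 50 cells of a library, named by class and leading gene, with 95% exact Poisson intervals. *Bach1* is highest in the smaller of the EBI-like clusters led by *Slfn14* (397 CPM in 792 cells of the wild-type-labelled library) and in monocyte-like clusters. *Irf4* is highest in the main B lymphocyte-like, mature DC-like and *Ffar2*-led clusters.

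Set against monocytes of the same library, the factors split. On the log2 scale of CPM ratios, RPM-like over Ly6c-high monocyte-like cells, *Spic* was at 1.79 and 2.57 and *Maf* at 1.80 and 2.49 in the libraries labelled wild-type and SCD. *Klf4* was at -3.57 and -3.12, *Irf4* at -2.85 and -1.82, *Bach1* at -1.79 and -2.07 and *Cebpb* at -1.15 and -1.89. In the wild-type-labelled library 2 of the 9 were at least 2-fold higher in RPM-like cells and 4 lower, where 22.3% of 10290 genes were at least 2-fold apart (11% higher and 11.4% lower). In the SCD-labelled library 2 were higher and 6 lower, where the share was 26.5% (15.8% and 10.7%). *Nfe2l2* at -0.90 and -1.19 and *Spi1* at -0.96 and -1.42 were the 2 that crossed the limit between the libraries, and *Irf8* was at 0.51 and 0.68. In Ly6c-high monocyte-like cells *Spic* was at 28.8% and 16.8% of its RPM-like level and *Maf* at 28.8% and 17.7%. The macrophage markers there ran from 22.9 to 45.3% and from 10.4 to 27.8%. The ratios of *Spic* and *Maf*, and their sizes in the 2 libraries, are thus not read as expression in monocytes. The part of free RNA was not tested.

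Against Ly6c-low monocyte-like cells, 1 of the 8 factors with at least 100 UMIs was at least 2-fold higher and 5 lower in the wild-type-labelled library (16.1% of all genes, 8.46% higher and 7.68% lower), and 2 of 9 higher and 5 lower in the SCD-labelled library (19.9%, 11.7% higher and 8.26% lower). *Klf4* had log2 ratios of -4.50 and -4.31 and *Cebpb* of -2.53 and -2.58. Each factor had the same sign against both monocyte classes and in both libraries, with *Irf4* in the wild-type-labelled library resting on under 100 UMIs against Ly6c-low monocyte-like cells.

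**Figure D4:**
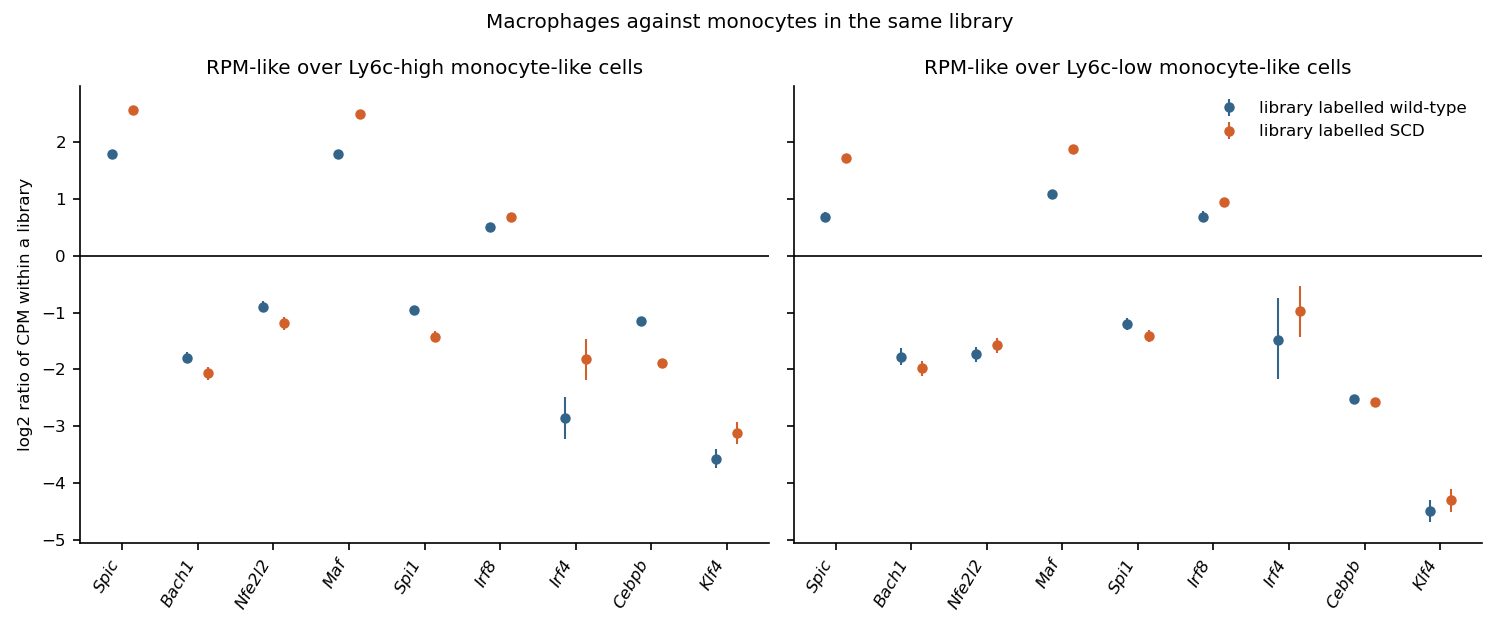
Log2 ratio of CPM in RPM-like over Ly6c-high (left) and Ly6c-low (right) monocyte-like cells, in the wild-type-labelled library (blue) and the SCD-labelled library (orange), with 95% exact intervals. *Spic*, *Maf* and *Irf8* lie above 0 in all 4 comparisons and the other 6 factors below 0, with *Klf4* lowest at -3.12 to -4.50. In the monocyte classes *Spic* and *Maf* were in the range of the macrophage markers, except *Spic* in Ly6c-low monocyte-like cells of the wild-type-labelled library.

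Against DCs the split was another one. RPM-like over mature DC-like cells, *Cebpb* had a log2 ratio of 1.20 and 1.76, *Irf8* of 1.19 and 2.22 and *Irf4* of -3.87 and -3.38. In mature DC-like cells *Spic*, *Maf*, *Irf8* and *Cebpb* lay inside the range of the macrophage markers in both libraries. Their levels there are not read as expression. Of the 9, 4 were at least 2-fold higher and 1 lower in each library, where 23.2% of all genes were at least 2-fold apart in the wild-type-labelled library (12.1% higher and 11.1% lower) and 33.8% in the SCD-labelled library (22.4% and 11.4%). Over cDC2-like cells *Cebpb* was at 0.02 (-0.09 to 0.12) and -0.44, *Irf4* at -3.52 and -2.48 and *Klf4* at -2.87 and -2.58. In that comparison 3 were higher and 3 lower in the wild-type-labelled library (24.6%, 11.1% higher and 13.5% lower), and 3 higher and 4 lower in the SCD-labelled library (25.8%, 13.1% and 12.7%). Of the cDC2-like cells, 16.8% lay among the 10% that Scrublet scored highest in the wild-type-labelled library, where its threshold marked 0 cells. In the SCD-labelled library its threshold marked 40.6%. The part of doublets was not tested in this comparison. In cDC2-like cells the cDC2 markers summed to 734 and 1224 CPM and the Ly6c-high monocyte markers to 1710 and 1102 CPM. The class is thus not free of monocyte transcripts. In RPM-like cells the Ly6c-high monocyte markers summed to 54.6 and 39.9 CPM. Their part in the ratios over cDC2-like cells was not tested either.

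Between the libraries, most factors were close in RPM-like cells. The log2 ratio of the SCD-labelled library to the wild-type-labelled library was 0.10 (-0.04 to 0.23) for *Bach1*, 0.16 (0.04 to 0.29) for *Nfe2l2*, 0.16 for *Cebpb*, 0.11 for *Maf* and 0.23 for *Irf8*. *Spic* was at 0.71 (0.68 to 0.74), *Klf4* at 0.70 (0.45 to 0.95), *Irf4* at 1.29 (0.81 to 1.77) and *Spi1* at -0.44 (-0.53 to -0.34). Only *Irf4* was at least 2-fold apart, 1 of 9, where 13.3% of 9987 genes were (9.1% higher and 4.21% lower). Markers of the cells in which *Irf4* was highest were also higher in these RPM-like cells, at 169 and 453 CPM in sum for mature DCs, 35.1 and 66.1 CPM for cDC2 and 80.4 and 124 CPM for B lymphocytes. Their part in the ratio of *Irf4* was not tested. *Klf4* was at 0.85 (0.12 to 1.67) in the B-cell reference, from 17 and 136 UMIs, and this interval holds the whole interval in RPM-like cells. *Spic* was at 0.53 (0.28 to 0.78) in the B-cell reference, from 152 and 970 UMIs, and this interval also holds that in RPM-like cells. The part of free RNA in the ratios of *Klf4* and *Spic* was not tested. Markers of Ly6c-low monocytes, in which *Klf4* was highest, summed to 1486 and 2757 CPM in these RPM-like cells. Their part in the ratio of *Klf4* was not tested either. The median of the 9 was 0.16, against 0.20 over all these genes. By this count the factors were no more apart than genes at large.

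The 2 libraries hardly shared RPM-like clusters, so that a difference between clusters and one between libraries cannot be told apart. In the wild-type-labelled library, *Spic* was at 1179 CPM (1157 to 1202) in the cluster led by *Gm48996*, of 1102 cells, and at 863 CPM (843 to 883) in the cluster led by *Marco*, of 3581 cells. The cluster led by *Rgs1*, with 1607 cells of the SCD-labelled library, had 1679 CPM (1650 to 1709). The 32 cells of the wild-type-labelled library in that cluster had 816 CPM (604 to 1079). *Spic* in the SCD-labelled library was thus above each cluster of the other library.

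This did not hold for *Maf*, *Irf8* and *Bach1*. Without the cluster led by *Marco*, whose median depth was 1642 UMIs, their log2 ratios were -0.13, -0.09 and -0.09, and without the cluster led by *Gm48996* they were 0.43, 0.66 and 0.33. *Maf* was at 2434 and 1651 CPM in these clusters of the wild-type-labelled library and *Irf8* at 803 and 474 CPM. *Spi1*, with 213 and 221 CPM in the same clusters, stayed above its 161 CPM in the cluster led by *Rgs1*.

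Immediate early genes, which dissociation can raise, also differed in RPM-like cells. Of the 9 with enough UMIs, 6 were at least 2-fold higher and 1 lower in the SCD-labelled library, with a median log2 ratio of 1.54, where 9.1% of all genes were at least 2-fold higher and 4.21% lower. Of the 6 heat shock genes none was higher and *Hspa1b* was lower. The part of these genes in the ratio of *Klf4*, itself an early response gene, was not tested.

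**Figure D5:**
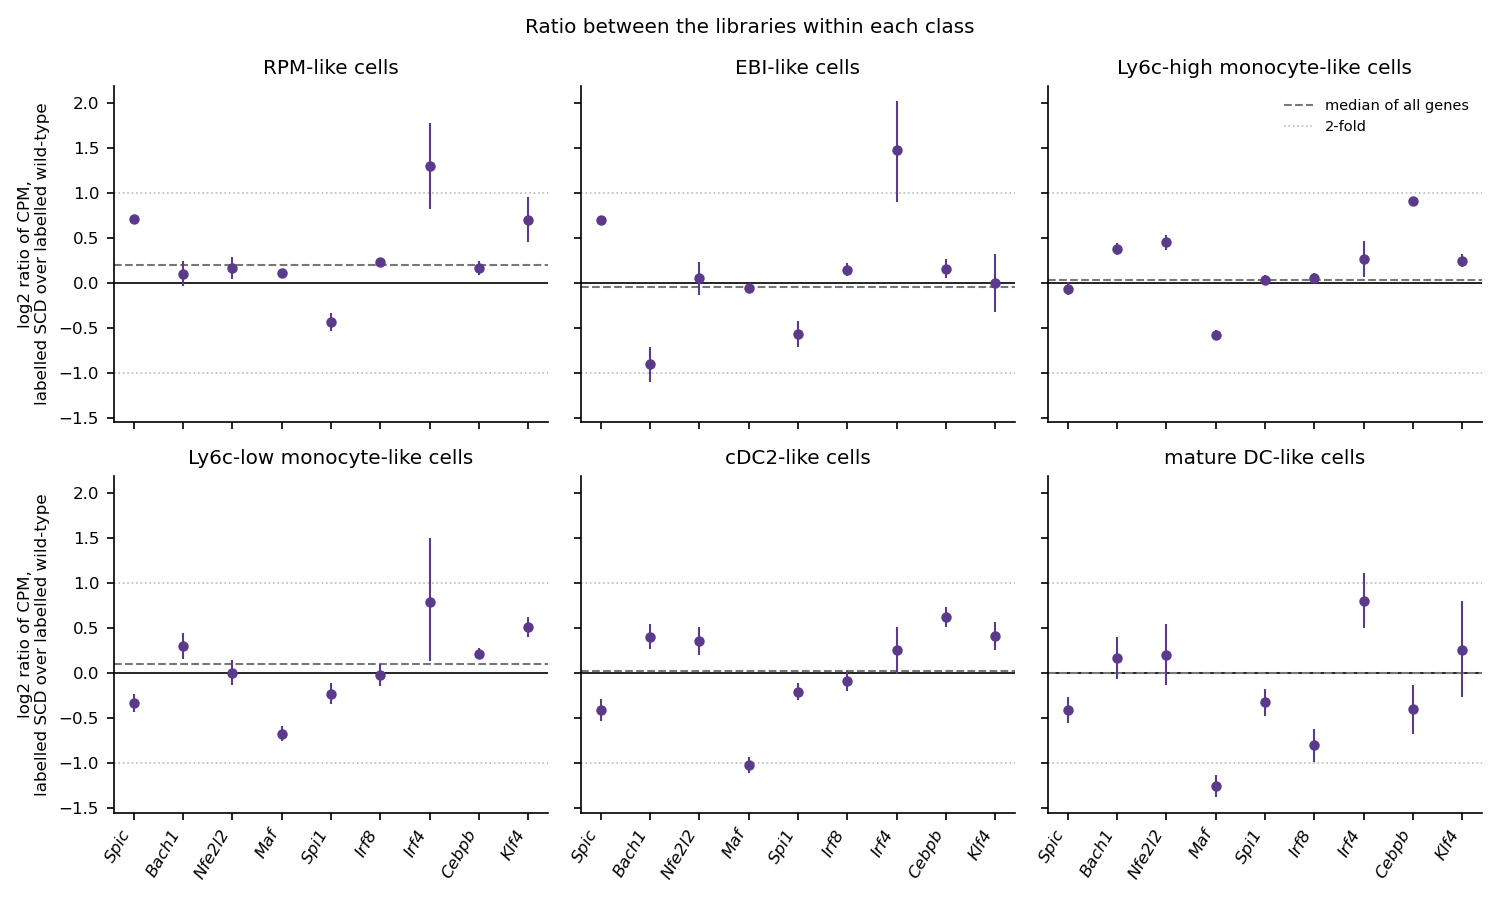
Log2 ratio of CPM, library labelled SCD over library labelled wild-type, for the 9 factors in 6 cell classes, with 95% exact intervals, the median of all genes (dashed) and the 2-fold limits (dotted). *Spic* lies above 0 in RPM-like and EBI-like cells (0.71 and 0.69) and below it in Ly6c-low monocyte-like cells and both DC classes, and *Irf4* lies above 0 in all 6 classes, although in cDC2-like cells its interval holds 0. The B-cell reference, where *Spic* was at 0.53, is not drawn.

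EBI-like clusters were hardly shared either. Of the 752 cells of the SCD-labelled library, 634 lay in the cluster led by *Hbb-bs* and *Hbb-bt*, which held 11 of the other library, so differences between clusters and between libraries cannot be told apart here. In EBI-like cells *Spic* was again higher in the SCD-labelled library, by 0.69 (0.64 to 0.74) on the log2 scale, and *Spi1* lower, at -0.57. *Irf4* was at 1.47 and was the 1 of 9 at least 2-fold apart (13.1% of 10175 genes, 4.03% higher and 9.06% lower). It rested on 107 and 38 UMIs, and markers of mature DCs summed to 166 and 363 CPM and those of B lymphocytes to 84.2 and 125 CPM in the same cells. Their part was not tested. *Bach1* was at -0.91 (-1.10 to -0.72), and at -0.73 without the cluster led by *Slfn14* and *Oas1e*.

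In erythroid-like cells no factor was at least 2-fold apart, where 7.47% of all genes were (1.47% higher and 6.01% lower). *Maf* was at -0.95, *Spi1* at -0.71 and *Irf8* at -0.54 on the log2 scale, and *Klf4* at 0.94 (0.50 to 1.36). The 10 red pulp macrophage markers were lower as well, at 6366 and 3025 CPM in sum, and their part in these ratios was not tested.

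In Ly6c-high monocyte-like cells none of the 9 was at least 2-fold apart, where 7.68% of all genes were (2.42% higher and 5.26% lower). *Cebpb* came closest, with a log2 ratio of 0.91 (0.86 to 0.95), followed by *Maf* at -0.59 (-0.64 to -0.53), *Nfe2l2* at 0.45 and *Bach1* at 0.38. In the same cells the Ly6c-low monocyte markers summed to 1577 and 2871 CPM and the Ly6c-high markers to 7069 and 4436 CPM. The red pulp macrophage markers summed to 6375 and 2807 CPM there. The part of these 3 sets of markers in the ratios was not tested. The ratio of *Cebpb* was 0.56 in the cluster led by *Cd93* and *Ahnak* alone, which had 740 CPM (699 to 782) and 1089 CPM (1068 to 1110), and 0.92 in the cluster led by *Hbb-bs* and *Fn1* alone. Of the second cluster, 45.2% of cells over both libraries were taken as doublets. These were the highest-scoring 10% in the wild-type-labelled library and those past the Scrublet threshold in the SCD-labelled library. The first held 306 and 1483 cells, and most Ly6c-high monocyte-like cells of the wild-type-labelled library, 855, lay in a cluster led by *Vcan* that held 10 of the other library. In Ly6c-low monocyte-like cells *Klf4* was at 0.51 (0.40 to 0.63), *Bach1* at 0.30 and *Cebpb* at 0.21. No factor was at least 2-fold apart there either (4.86% of all genes, 2.53% higher and 2.33% lower).

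In DCs *Maf* was lower in the SCD-labelled library, with log2 ratios of -1.02 in cDC2-like and -1.26 in mature DC-like cells, where 2.9% (1.21% higher and 1.7% lower) and 7.21% (2.13% and 5.09%) of all genes were at least 2-fold apart. It was the 1 of 9 past that limit in each. The 10 red pulp macrophage markers summed to 5370 and 2364 CPM in cDC2-like cells and to 8638 and 3257 CPM in mature DC-like cells of the libraries labelled wild-type and SCD, so they were lower as well, and their part was not tested. In mature DC-like cells *Irf8* was at -0.80 (-0.99 to -0.62) and *Irf4* at 0.80 (0.50 to 1.11). *Irf8* was there at 43.9% and 21.5% of its level in RPM-like cells. This is inside the range of the macrophage markers, 30.8 to 46.6% and 11.8 to 30.2%. Its lower value is thus not read as a difference in DCs, and the part of free RNA was not tested. In the B-cell reference *Spic*, *Irf8* and *Irf4* were at 0.53, 0.23 and -0.16, and no factor was at least 2-fold apart (2.27% of all genes, 1.23% higher and 1.04% lower).

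Over all kept cells, which mixes the classes in their different shares, *Irf4* had a log2 ratio of 1.46 and *Klf4* of 1.09, and these 2 of 9 were at least 2-fold apart, where 21.8% of 13015 genes were (12% higher and 9.78% lower). *Cebpb* was at 0.83, *Maf* at -0.76 and *Spic* at -0.10. RPM-like cells made up 24.3% of the wild-type-labelled library and 13.2% of the SCD-labelled library, Ly6c-low monocyte-like cells 2.30% and 8.54%, so the ratios over all cells carry these shares.

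The targets of BACH1 and NRF2 were mostly lower in RPM-like cells of the SCD-labelled library. Of 22 listed, 21 had enough UMIs in RPM-like cells. None was at least 2-fold higher in the SCD-labelled library, where 9.1% of all genes were, and 4 were lower, where 4.21% were. The 4 were *Me1*, which makes NADPH (-4.18 on the log2 scale), the cystine transporter *Slc7a11* (-1.14), and the ferritin chains *Fth1* (-1.08) and *Ftl1* (-1.03). Their median was -0.56, against 0.20 over all genes. *Hmox1*, the heme oxygenase, had 11674 and 7359 CPM (-0.67 on the log2 scale), and *Slc40a1*, the iron exporter, was at 0.19. The list was lower in the other classes as well, with medians of -0.69 in EBI-like, -0.65 in erythroid-like, -0.77 in Ly6c-high and -1.16 in Ly6c-low monocyte-like, -0.81 in cDC2-like and -1.01 in mature DC-like cells. In the B-cell reference for free RNA the median was -0.50, with 1 of 17 at least 2-fold lower. The lower median of the targets was thus found in every class examined, the reference for free RNA included. Outside the macrophages the red pulp macrophage markers were lower as well. They summed to 9066 and 5868 CPM in Ly6c-low monocyte-like cells and to 8638 and 3257 CPM in mature DC-like cells. The part of free RNA in these medians was not tested, so they are not read as expression in each class.

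Of 7 partners and regulators of both factors with enough UMIs in RPM-like cells, 1 had a log2 ratio above 0. The median was -0.20, against 0.20 over all genes. *Keap1*, which marks NRF2 for degradation, had 75.5 and 74.9 CPM (-0.01), and *Cul3*, its ligase, was at -0.14. *Mafg*, the small MAF protein that pairs with BACH1 or NRF2 on DNA, was at 103 and 176 CPM (0.77), and *Mafk* at -0.20. Of 7 partners none was at least 2-fold higher, and *Nfe2*, an erythroid relative of NRF2, was the 1 lower, at -1.76 from 261 and 34 UMIs, where 9.1% of all genes were higher and 4.21% lower. Erythroid markers summed to 641 and 142 CPM in the same cells, and their part was not tested.

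Within each library more targets were higher than lower in RPM-like against Ly6c-high monocyte-like cells, where *Nfe2l2* and *Bach1* were lower. Of 21 targets 10 were at least 2-fold higher and 1 lower in the wild-type-labelled library (11% and 11.4% of all genes), and of 20 targets 10 were higher and 3 lower in the SCD-labelled library (15.8% and 10.7%). Their median log2 ratios were 1.0 and 0.99. Against Ly6c-low monocyte-like cells this was not so in the wild-type-labelled library, where 1 of 21 was at least 2-fold higher and 3 lower (8.46% and 7.68% of all genes), with a median of 0.09. In the SCD-labelled library 6 of 20 were higher and 2 lower (11.7% and 8.26%), with a median of 0.73. The levels of transcripts do not give the amounts or activity of BACH1 and NRF2.

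Of 14 relatives of the factors with enough UMIs in RPM-like cells, all 14 had a log2 ratio above 0. In the SCD-labelled library 5 were at least 2-fold higher and none lower (9.1% and 4.21% of all genes), and the median log2 ratio was 0.67, against 0.20 over all genes. The 5 were *Irf1* (86.5 and 210 CPM, 1.28) and *Irf7* (1.48), both of the interferon response, *Cebpd* (1.43), *Klf2* (1.70) and *Ets1* (1.44). The median of the list was above 0 in the other classes as well. It was 0.45 in EBI-like, 0.27 in erythroid-like, 0.33 in Ly6c-high and 0.53 in Ly6c-low monocyte-like cells. In cDC2-like cells it was 0.39 and in mature DC-like cells 0.45. In the B-cell reference it was 0.09, against 0.06 over all genes.

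Of 13 other myeloid factors 3 were at least 2-fold higher, *Nr4a1* (1.99), *Batf3* (1.76) and *Zbtb46* (1.86), and none lower (9.1% and 4.21% of all genes), with a median of 0.41. *Batf3* and *Zbtb46* act in DCs, and in the same cells the markers of mature DCs summed to 169 and 453 CPM. Their part was not tested. The cDC1 markers summed to 775 and 1278 CPM in RPM-like cells, more than in any other named class, and to 537 and 486 CPM in cDC2-like cells. Their sum is thus not read as a sign of DCs. *Nr4a1*, the factor of Ly6c-low monocytes, is also an early response gene. The Ly6c-low monocyte markers summed to 1486 and 2757 CPM in RPM-like cells, and their part in the ratio of *Nr4a1* was not tested. *Nr1h3*, which encodes LXRα, was at 419 and 555 CPM (0.41).

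Of 10 myeloid genes bound by PU.1, 2 were at least 2-fold higher and 1 lower (9.1% and 4.21% of all genes), with a median of 0.28 against 0.20 over all genes. *Csf1r*, the receptor for M-CSF, was at 785 and 1744 CPM (1.15) and *Itgam* at 4.79 and 10.4 CPM (1.12), while *Lyz2*, lysozyme, was at 1564 and 172 CPM (-3.19).

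The genes most like each factor were found by Pearson correlation of log2(CPM + 1) over 19 points, each a class of at least 50 cells in 1 library, among 9932 genes with at least 1000 UMIs. The points share libraries, free RNA and cells of neighbouring classes, and the correlations are a description. *Spic* was most like *Itga9* (0.988), *Prkar1b* (0.977) and *Jup* (0.972), and *Maf* like *Wdr75* (0.976), *4931406C07Rik* (0.975) and *Dst* (0.974). *Klf4* was most like *Cx3cr1* (0.974), the fractalkine receptor and a marker by which Ly6c-low monocyte-like cells were named, *Ldlrad3* (0.960) and *Thbd* (0.954). *Cebpb* was most like *Wsb1* (0.936), *Clec4a3* (0.932) and *Rap1b* (0.932), and *Nfe2l2* like *Tln1* (0.922), *Cd300lb* (0.918) and *Ifitm2* (0.913).

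For *Bach1* the list was *Polr2l* (0.910), *Nupr1* (0.903) and *Klf4* (0.883), and for *Spi1* it was *Lst1* (0.909), *Tyrobp* (0.904) and *Stx7* (0.898). *Irf8* was most like *Ddx31* (0.957), *Cyp20a1* (0.920) and *Nln* (0.909), and *Irf4* like *Haao* (0.958), *Cd40* (0.932) and *Btla* (0.913), of which *Cd40* and *Btla* encode receptors of DCs and B lymphocytes. Among the factors themselves, *Spic* with *Maf* reached 0.92, *Cebpb* with *Nfe2l2* 0.91 and *Klf4* with *Cebpb* 0.89, *Klf4* with *Bach1* 0.88. *Irf4* with *Maf* was lowest, at -0.44.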

How the data were processed

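Per the methods and the labels, spleen cells bound by anti-F4/80 beads were processed with 10x Genomics 3′ chemistry. The authors aligned reads and counted UMIs with Cell Ranger 4.0.0 (the matrix header names 3.1.0), with build GRCm38.p6 per the submitters' processing notes, and the deposited matrices hold unnormalized UMI counts for each gene in each barcode. UMIs come from transcript 3′ ends, so levels of different genes were not compared.

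A cell was kept if it had 500 to 5000 genes, less than 15% of UMIs from mitochondrial genes and less than 30% from ribosomal-protein genes. Genes detected in fewer than 20 kept cells were dropped. The matrices are counts, but with 1 mouse per condition no count model was fitted and no test was made. After normalization with scran 1.30.0 (R 4.3.3), 1990 of the 2000 most variable genes (members, sex-linked and hemoglobin genes were taken out) gave 30 principal components, a graph of 15 neighbours and Leiden clusters at resolution 1 (scanpy 1.11.5). Clusters were named from marker lists without the members. A name needed at least 3 markers found in 10% of cells, for RPM-like clusters at a median of 4 times, and for erythroid markers 2 times, that of the main cluster of B lymphocyte-like cells, and for other classes 2 times that of the remaining cells. Clusters whose 10 leading genes held more markers of another class stayed unnamed. Doublets were scored with Scrublet and left in. Its threshold marked 0 cells in the library labelled wild-type, where the highest-scoring 10% were taken in the alternative without doublets, and 13.9% in the library labelled SCD.

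Levels are CPM of summed UMIs with exact Poisson intervals, shares have exact binomial intervals after thinning to 1000 UMIs, and ratios exact conditional intervals, tested on simulated data. Thinning left out cells under 1000 UMIs. Ratios were given for genes with at least 100 UMIs over both sides of the comparison. The 9 members, and the lists of their targets, partners and relatives, were chosen with earlier results of these data known, and the 3 genes most like each member were named by rule. *Hbb-bs*, *Hba-a1*, *Hspa1b* and leading genes of clusters were picked with their values in view. Gene places are from GENCODE M21. Alternatives were set for filters, doublets, clustering, the library total, weighting and thinning. Values of 1 gene of the lists are not reported here.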

Additional observations from a re-analysis of the deposited data

How the results depend on the processing

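No paired analysis was possible because each condition is 1 mouse, and no result could be tested against the spread between mice. The median log2 ratio of the 9 factors in RPM-like cells was 0.16, and 0.035 with clustering at resolution 2 and 0.43 without the cluster led by *Gm48996*. The count at least 2-fold apart was 1, and 2 as a mean over cells or without the cluster led by *Gm48996*, where *Klf4* joined *Irf4*. The log2 ratio of *Spic* in these cells was 0.71 and stayed above 0 in all 11 alternatives. It was 0.63 with at least 200 genes per cell, at resolution 2 and with all genes in the clustering, 0.84 as a mean over cells, 0.51 without the cluster led by *Marco* and 0.96 without that led by *Gm48996*. Over all kept cells the median of the 9 was 0.36, and 0.22 as a mean over cells and 0.010 with scran-normalized counts. *Nfe2l2* and *Cebpb* were just below 0 at resolution 2 (-0.04 and -0.12) and with scran-normalized counts (-0.03 and -0.04), and *Cebpb* also without the cluster led by *Gm48996* (-0.02). The cause was not tested. *Irf4* ran from 1.05 to 1.87, *Spi1* from -0.66 to -0.33 and *Klf4* from 0.14 to 1.12. The highest class of a factor in a library was the same as reported in 14 to 18 of 18 cases. The lowest count came from clustering the libraries apart, in which no cluster of the library labelled wild-type was named Ly6c-low monocyte-like and 4 factors were then highest in Ly6c-high monocyte-like cells. A pseudocount of 10 CPM kept 20 of the 27 genes named as most alike. The alternatives that leave out an RPM-like cluster, or take 1 monocyte-like, EBI-like or cDC2-like cluster apart, were chosen after seeing the data. The depth limits *Irf4* in RPM-like cells most, with 73 and 79 UMIs.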
